A study of Mus musculus with 102 samples.

Results

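The comparison described here sets aged against adult calorie-restricted mice in epidermal stem cells collected at ZT0, the first of 6 zeitgeber times of the light cycle. The columns were chosen by their labels: 5 arrays of aged mice (83 to 97 weeks old) and 5 of adult mice (47 to 57 weeks old), 10 arrays in all from 2 of the 24 groups in the series, each a combination of age, diet and time. All mice were Per1-Venus BAC transgenic mice on a C57B6/J background, which carry a fluorescent reporter driven from the clock gene Per1 in every group, controls included. Restricted mice received 30% less food than the ad libitum intake for 25 weeks, after 3 weeks in which their food was cut by 10% per week. They entered that adaptation at 55 to 69 weeks (aged) or 19 to 29 weeks (adult). Used beside them were 4 aged and 4 adult arrays of ZT0 on control diet fed ad libitum, and 20 aged and 25 adult arrays of calorie restriction at ZT4, ZT8, ZT12, ZT16 and ZT20. Epidermis is the labelled tissue, and expression was read on Affymetrix mouse PM arrays as log2 levels made with RMA. The design text gives 4 mice per time point and diet, whereas 5 arrays carry the label of each restricted ZT0 group, and no label ties an array to an animal, a sex or a day. The p-values below therefore rest on the spread between arrays, not between known animals. Except where stated, that spread is shared by all arrays of the series and does not come from the arrays of this comparison alone.

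Epidermal stem cells are the basal keratinocytes that anchor to the basement membrane, divide, and supply the stratified layers above them and parts of the hair follicle. Their transcription follows the circadian clock, a feedback loop in which Arntl and Clock activate the Per and Cry genes, whose products in turn repress that activation. Calorie restriction lowers insulin and mTOR signalling, shifts cells towards fatty acid oxidation and autophagy, and acts on the timing of clock output in several tissues. The question the comparison addresses is which genes separate aged from adult epidermal stem cells at 1 time of day when both ages are restricted.

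Of the 5 aged arrays, 2 stood apart. Aged array 4 correlated with the other 4 aged arrays at 0.878 to 0.961 over the 13383 genes tested, and 1957 of its genes lay more than 1 log2 unit from the mean of those arrays, against 185 to 530 genes for the other aged arrays and 12 to 123 for the adult arrays. Aged array 3 moved the same way by less. On the first principal component over all arrays of the series, which held 24.4% of the variance, aged arrays 4 and 3 ranked 2 and 4, at 66.3 and 39.5, while the other aged arrays lay between -13.8 and -5.5 and the adult arrays between -25.5 and 15.2. Among the 18 arrays of ZT0 the highest position belonged to adult control array 1, at 70.6.

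The difference between Gapdh control probe sets was high on some of the arrays high on that axis, but not on all of them. The control probe sets at the 3' and 5' ends of Gapdh differed by 0.53 and 0.58 log2 units on aged arrays 3 and 4, against 0.00 to 0.06 on aged arrays 1, 2 and 5 and 0.04 to 0.32 on the adult arrays. The median over all arrays of the series was 0.10, and adult control arrays 1 and 2 stood at 1.00 and 0.63. Array 2 of these lay at only 15.3 on the component (rank 14), and adult control array 4, at 37.3 (rank 6), had a Gapdh difference of 0.12. The corresponding difference for Actb lay between -0.21 and -0.03 on the 10 restricted arrays, and was highest on aged array 4. Probe sets of the same gene also came apart. Over 5144 genes with at least 2 probe sets above the filter on dim genes, the difference between the 2 brightest sat 0.45 log2 units (median) from its level over all arrays on aged array 4 and 0.31 on aged array 3, against 0.14 to 0.17 on the other aged arrays and 0.10 to 0.19 on the adult arrays. Aged arrays 4 and 3 ranked 3 and 4 of all arrays by this measure, and 4 and 5 by the Gapdh difference. On adult control arrays 1, 2, 3 and 4 the probe set measure was 0.52, 0.30, 0.15 and 0.25. It was 0.11 to 0.18 on the aged control arrays. The part of these measures in the gene differences below was not tested beyond leaving the arrays out. Values are given with all arrays and, for many of the genes, without array 4 or without arrays 3 and 4.

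**Figure D1:**
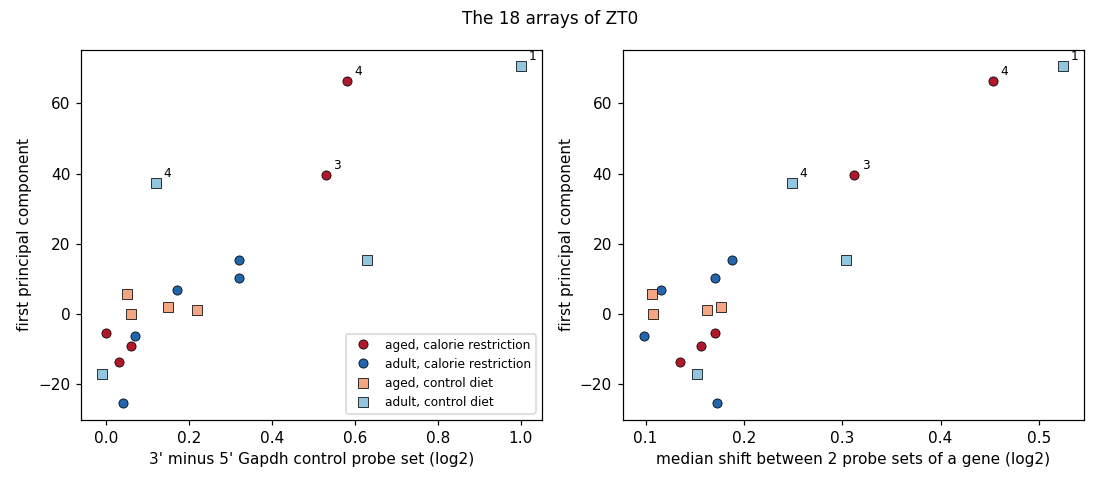
Each point is 1 of the 18 arrays of ZT0. The vertical axis is the position on the first principal component over all arrays of the series, and the horizontal axis is the 3' minus 5' difference of the Gapdh control probe sets (left) or the median shift between 2 probe sets of the same gene (right), both in log2 units. Points are numbered by replicate where the component lies beyond 30 from 0: aged restricted arrays 3 and 4 stand at 39.5 and 66.3, and adult control arrays 4 and 1 at 37.3 and 70.6.

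The spread within the aged group was wide. The median standard deviation per gene was 0.31 log2 units over the 5 aged arrays and 0.21 over the 5 adult arrays, which ranks 2 and 8 of the 24 groups of the series. It was 0.25 without aged array 4 and 0.15 without aged arrays 3 and 4. The SD was larger in aged than in adult mice for 76.2% of genes, and for 62.7% without array 4.

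With these arrays, 2 of 13383 genes passed a Benjamini-Hochberg adjusted p of 0.05 in limma, a background of 0.0149%: Specc1 rose and Rgcc fell in aged mice. The median difference over all genes was -0.02 log2 units (a difference of 1 is a factor of 2), with a median standard error of 0.15, and 13 genes differed by more than 1, 6 higher and 7 lower in aged mice. At an unadjusted p of 0.05, 1156 genes passed, 359 higher (2.68% of genes) and 797 lower (5.96%) in aged mice. All aged arrays lay above all adult arrays for 46 genes (0.344%), and below them for 38 (0.284%). Of the 1156 genes, 539 had a second probe set above the filter, which pointed the same way for 80.7%, beside 63.7% of all 5144 such genes. Each array reads RNA pooled from many cells, so fewer cells of a type and less RNA per cell cannot be told apart.

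Specc1, a gene on chromosome 11 which encodes a protein with a calponin homology domain and coiled coils, had log2 levels of 7.37, 7.21, 7.73, 7.86 and 7.32 in aged mice, against 6.78, 6.79, 6.97, 7.08 and 6.98 in adult mice. The groups did not overlap, and the highest aged levels were those of arrays 3 and 4. The mean difference was 0.58 ± 0.10 (SE from the shared spread, n = 5 each), with a 95% interval of 0.37 to 0.79. The adjusted p was 0.00344 in limma. Without aged array 4 the difference was 0.49 with an adjusted p of 0.0464, and without aged array 3 the adjusted p was 0.0523. When only the 10 arrays of the comparison entered the fit, with no spread borrowed from the other groups, the adjusted p was 0.998. Only 1 of its 2 probe sets lay above the filter on dim genes.

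Rgcc, a gene on chromosome 14 for a regulator of the cell cycle that binds and activates CDK1, had the largest difference in either direction of the 13383 genes. Its log2 levels were 6.46, 7.35, 6.47, 6.11 and 7.14 in aged mice and 8.27, 8.39, 8.67, 8.36 and 8.41 in adult mice. Every aged array lay below every adult array. The difference was -1.71 ± 0.33 (SE from the shared spread, n = 5 each, 95% interval -2.38 to -1.05, limma adjusted p = 0.0115). It kept its direction in every alternative run, with an adjusted p of 0.0637 without aged array 4, 0.0523 without aged array 3, 0.0809 without aged array 1 and 0.073 when only the 10 arrays entered the fit. On control diet the aged minus adult difference of Rgcc was -0.84 ± 0.37, and the difference between the diets gave an adjusted p of 0.275. At the other 5 times under restriction it was -0.57 ± 0.16, and the difference between ZT0 and those times gave an adjusted p of 0.899.

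A further 10 genes are named because they had the smallest p in their direction once unnamed transcripts were left out, although their adjusted p lay between 0.0714 and 0.4. The higher ones in aged mice were Zscan22, Aars, Tead4, Iars and Slc22a23. Zscan22, a zinc finger protein with a SCAN domain, had levels of 7.78, 6.94, 7.08, 7.26 and 7.49 in aged mice, against 6.27, 6.56, 6.89, 6.26 and 6.77 in adult mice. Its groups did not overlap, the difference was 0.76 (adjusted p = 0.0714), and both of its probe sets were higher in aged mice, by 0.76 and 0.54. Tead4, a DNA-binding partner of the growth regulators YAP and TAZ, had levels of 7.39, 6.66, 5.85, 5.42 and 6.45 in aged mice and 5.44, 5.29, 5.48, 5.77 and 5.17 in adult mice. Aged arrays 1, 2, 3 and 5 stood above every adult array and aged array 4 did not. Its difference was 0.92 with all arrays (adjusted p = 0.173) and 1.16 without aged array 4 (adjusted p = 0.022). Slc22a23, a solute carrier of the organic ion transporter family, had levels of 9.18, 8.34, 8.27, 8.03 and 8.59 in aged mice, against 7.68, 7.71, 8.07, 8.06 and 7.82 in adult mice, a difference of 0.61, with only array 4 of the aged group inside the adult range. Without aged arrays 3 and 4 the differences were 0.85 for Zscan22, 1.40 for Tead4 and 0.83 for Slc22a23.

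Aars and Iars encode the cytosolic enzymes that charge tRNA with alanine and with isoleucine. Aars had levels of 8.90, 8.03, 8.38, 8.39 and 8.90 in aged mice and 7.59, 7.63, 8.16, 8.10 and 7.80 in adult mice, a difference of 0.66 ± 0.15 (adjusted p = 0.0714). Iars had 9.84, 9.18, 9.57, 9.88 and 9.78 in aged mice and 8.94, 9.23, 9.30, 8.89 and 9.13 in adult mice, a difference of 0.55 ± 0.14 (adjusted p = 0.314). For both genes 4 of the 5 aged arrays lay above every adult array and array 2 did not, and both probe sets of each gene were higher in aged mice. Without aged arrays 3 and 4 the differences were 0.76 for Aars and 0.50 for Iars. The bases before the start of Aars are printed because they hold the letters TGATGNAA, the core of the C/EBP-ATF response element that marks genes induced when amino acids are short. Read on either strand, these letters stood in 3.45% of 32851 promoter windows of the same length. The window is the 250 bases before the RefSeq start of Aars on the plus strand, chr8:111033592-111033841 (GRCm38.p6), with the match, on the minus strand 112 to 105 bases before the start, in capitals.
Aars: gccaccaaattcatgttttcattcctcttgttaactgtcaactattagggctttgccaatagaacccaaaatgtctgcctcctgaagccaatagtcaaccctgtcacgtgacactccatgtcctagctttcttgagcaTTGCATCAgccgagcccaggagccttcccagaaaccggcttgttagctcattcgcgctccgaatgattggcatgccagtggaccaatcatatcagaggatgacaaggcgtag
The windows of Iars and Trib3, another amino acid response gene described below, do not hold these letters.

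The lower genes were Moxd1, Cst3, Pdlim4, Fzd10os and Ablim1. Moxd1, a copper monooxygenase related to dopamine beta-hydroxylase, had levels of 9.76, 10.20, 9.37, 8.99 and 10.16 in aged mice, against 10.48, 10.50, 10.26, 10.16 and 10.53 in adult mice. Cst3, the secreted cathepsin inhibitor cystatin C, had 11.21, 11.50, 11.20, 10.58 and 11.28 in aged mice and 11.53, 11.67, 11.34, 11.45 and 11.62 in adult mice. In both, arrays 3 and 4 were the lowest of the aged group. The differences, -0.69 for Moxd1 and -0.37 for Cst3, were -0.34 and -0.19 without those arrays. Pdlim4 and Ablim1, LIM-domain proteins of the actin cytoskeleton, differed by -0.81 and -0.82 with all arrays and by -0.43 and -0.30 without arrays 3 and 4. Fzd10os, a transcript on the strand opposite the Wnt receptor gene Fzd10, differed by -0.58 with all arrays and by -0.48 without them, and by -0.03 on its second probe set with all arrays.

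**Figure D2:**
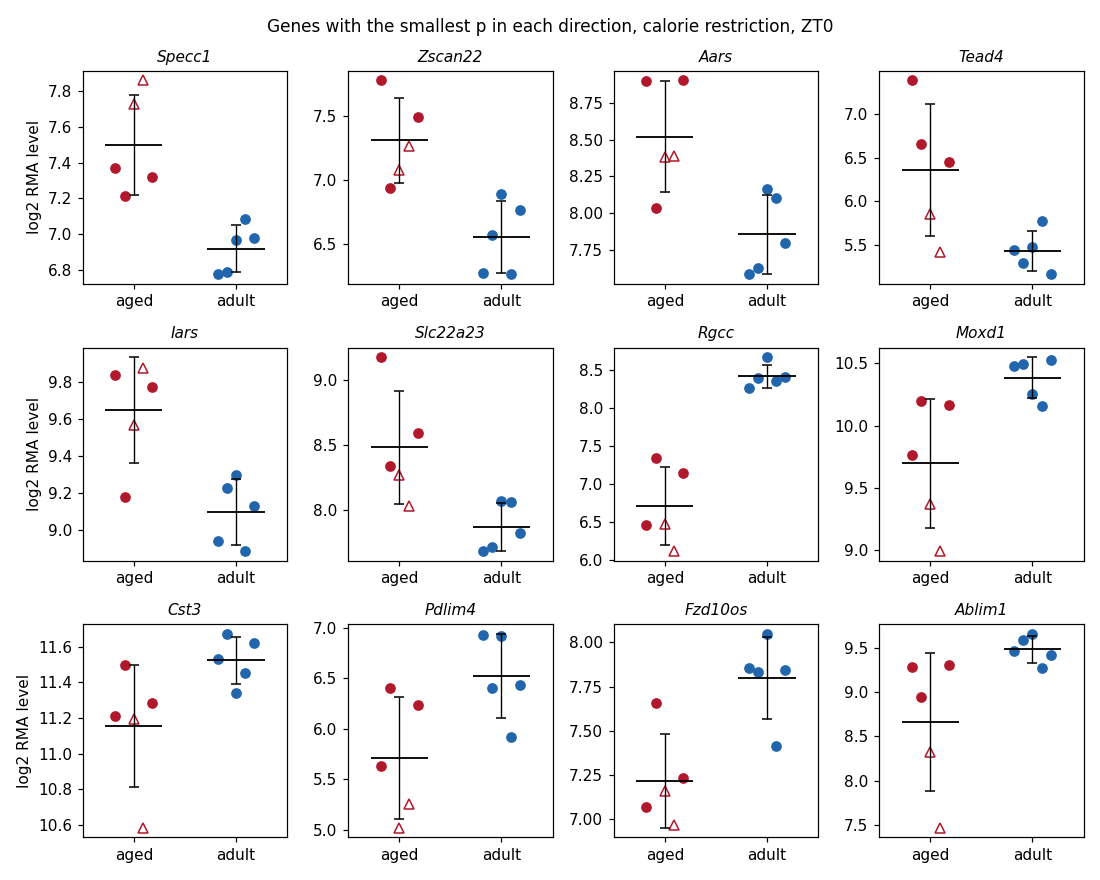
Log2 RMA levels of the 6 genes with the smallest p in each direction (unnamed transcripts left out), by array, with aged mice left of adult mice. Lines and bars are the mean and SD of 5 arrays, and open triangles are aged arrays 3 and 4. Specc1, Zscan22 and Rgcc are the panels in which the groups do not overlap, and arrays 3 and 4 hold the lowest aged levels of Moxd1, Cst3, Pdlim4 and Ablim1.

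Leaving out aged array 4 left 4 genes past the adjusted threshold, all higher in aged mice: Specc1, Tead4, Has2 and Msrb3. Has2 and Msrb3 were noticed only after their values had been seen. Has2, which makes hyaluronan, had levels of 6.00, 4.83, 5.08, 4.80 and 5.98 in aged mice, against 4.85, 4.51, 4.76, 5.33 and 4.73 in adult mice, and the difference without array 4 was 0.64 (adjusted p = 0.0396). Msrb3, a methionine sulfoxide reductase, had 6.91, 5.71, 5.62, 5.18 and 7.05 in aged mice and 5.45, 5.32, 6.08, 5.62 and 5.26 in adult mice, with a difference of 0.78 without array 4 (adjusted p = 0.0396). Aged arrays 1 and 5 held the highest levels of both genes. The brightest probe set of Has2 averaged 4.77 over all arrays, close to the filter level of 4.735. It differed by 0.50 with all arrays, and the second probe set, under the filter, by 0.20. Without aged arrays 3 and 4, a choice made after seeing the data, 41 genes passed, 38 higher and 3 lower in aged mice, and neither Specc1 nor Rgcc was among them (adjusted p = 0.104 and 0.0682).

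None of the 16 core clock genes tested passed the adjusted threshold, and 1 was higher (Per3) and 1 lower (Hlf) at an unadjusted p of 0.05. Over all genes, 2.68% were higher and 5.96% lower at that p. The median difference over the 16 was 0.10, beside -0.02 over all genes. Of the positive limb, Arntl had levels of 9.53, 9.22, 8.29, 7.75 and 9.16 in aged mice, against 9.60, 9.01, 9.51, 9.03 and 8.52 in adult mice, and its difference was -0.35 with all arrays and 0.17 without aged arrays 3 and 4. The second probe set of Arntl differed by -0.07. Clock, its partner, differed by 0.11, and its other probe sets above the filter by 0.27 and -0.15. Npas2, which can stand in for Clock, differed by -0.10 on its brightest probe set and by -0.62 on its second. Nr1d2 and Rora, the nuclear receptors that repress and activate Arntl, differed by 0.21 and -0.11, and 1 of the 4 Rora probe sets had the opposite sign, at 0.08.

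In the negative limb, Per1 differed by 0.28, Per2 by 0.10, Cry1 by 0.11 and Cry2 by -0.14, each with a 95% interval that includes 0. The second probe set of Per2 differed by 0.72. Cry1 had levels of 7.88, 7.01, 6.38, 4.84 and 7.26 in aged mice and 6.67, 5.68, 7.15, 7.27 and 6.06 in adult mice. Its lowest array was aged array 4, without which the difference was 0.57. Per3 had 5.93, 6.03, 7.27, 8.04 and 6.39 in aged mice and 5.76, 6.01, 6.02, 5.91 and 6.20 in adult mice. Aged arrays 3 and 4 were the only ones above 7, and the difference of 0.75 ± 0.29 was 0.13 without them. Its 4 probe sets above the filter on dim genes differed by 0.75, -0.35, 0.08 and 0.14, so the sign depended on the probe set. Bhlhe40, a repressor that competes for the E-box, differed by 0.30 and Ciart, a repressor of Arntl and Clock, by -0.24.

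Of the outputs that bind the D-box, Dbp differed by 0.13, Tef by 0.26 and Hlf by -0.35, and the opposing repressor Nfil3 by -0.38. Hlf had levels of 8.05, 8.23, 8.28, 7.88 and 8.37 in aged mice and 8.40, 8.79, 8.26, 8.51 and 8.61 in adult mice, with 1 adult array inside the aged range, and its 2 probe sets differed by -0.35 and 0.32. The per-array mean over the clock list ran from 7.54 to 7.80 in aged mice and from 7.53 to 7.80 in adult mice.

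**Figure D3:**
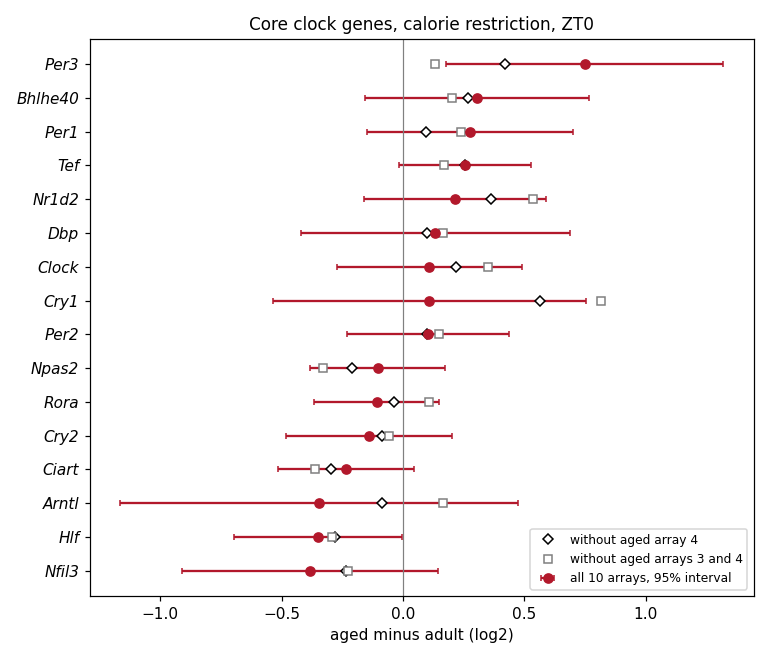
Aged minus adult difference in log2 level of the 16 core clock genes tested, under calorie restriction at ZT0. Filled points with bars are all 10 arrays with the 95% interval of limma, open diamonds leave out aged array 4 and open squares leave out aged arrays 3 and 4. Per3 moves towards 0 as the arrays are left out, and Cry1 moves away from it.

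None of the 42 gene lists for pathways, cell types and sample checks held a gene past the adjusted threshold. Each list is therefore described by its counts at an unadjusted p of 0.05, its median and its examples. Of all 13383 genes, 5918 were higher and 7465 lower in aged mice. At an unadjusted p of 0.05, 2.68% of all genes were higher and 5.96% lower. Of the lists with at least 10 tested members, cholesterol synthesis had the highest median, 0.19, with 14 of 18 members higher in aged mice, 3 of them at an unadjusted p of 0.05 and 1 lower. Without aged array 4 the median was 0.35. Idi1, which isomerises isopentenyl diphosphate, had levels of 9.97, 8.81, 9.70, 9.75 and 10.04 in aged mice, against 8.72, 8.32, 9.20, 9.45 and 8.39 in adult mice, a difference of 0.84 ± 0.35. Insig1, the membrane protein that holds back SREBP processing, had 9.51, 8.90, 10.61, 11.44 and 9.66 in aged mice and 8.45, 8.50, 9.30, 9.48 and 9.16 in adult mice. Its difference was 1.05 with all arrays and 0.38 without arrays 3 and 4, its 2 highest. Mvd, mevalonate diphosphate decarboxylase, differed by 0.36 and by 0.60 without those arrays, and Ebp, a sterol isomerase, by -0.45 and 0.06.

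The NF-kB and inflammation list had a median of 0.17, with 10 of 14 members higher, beside 5918 of all 13383 genes. Of its members, 4 were higher at an unadjusted p of 0.05 (2.68% of all genes), as many as without aged array 4. With all arrays those 4 were the chemokine Ccl20 (0.39), the cytokines Tnf (0.44) and Tslp (0.63), and Ptgs2, the inducible prostaglandin synthase (0.75). Ptgs2 had levels of 9.27, 7.95, 7.56, 7.49 and 9.11 in aged mice and 7.44, 7.71, 7.89, 7.92 and 6.65 in adult mice. Tslp had 7.05, 5.54, 5.56, 4.79 and 6.90 in aged mice, against 5.67, 4.60, 5.60, 5.81 and 4.99 in adult mice. For Tnf, Ptgs2 and Tslp the highest aged array was array 1 and the groups overlapped. With all arrays the smallest adjusted p among the 4 was 0.503. Without aged arrays 3 and 4 the differences were 0.53 for Ccl20, 0.65 for Tnf, 1.16 for Tslp and 1.25 for Ptgs2.

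In the unfolded protein response list 10 members were higher and 10 lower in aged mice, with a median of 0.00. Its member with the smallest p was Trib3, a pseudokinase induced by ATF4, with levels of 6.80, 5.73, 5.61, 6.07 and 7.53 in aged mice, against 5.63, 5.47, 5.99, 6.16 and 5.60 in adult mice. Aged arrays 1 and 5 were the highest of the 10, and the difference was 0.58 ± 0.16 (adjusted p = 0.4) with all arrays. Without arrays 3 and 4, a choice made after seeing the data, it was 0.92 (limma adjusted p = 0.00163). Atf4, the factor itself, had 10.82, 10.71, 10.84, 10.87 and 10.81 in aged mice and 10.43, 10.46, 10.58, 10.78 and 10.49 in adult mice, a difference of 0.26, while its second, dimmer probe set differed by -0.25. The chaperone Hyou1 differed by 0.50 with all arrays and by 0.11 without arrays 3 and 4, and its other probe sets by -0.03 and -0.31, so the sign depended on the probe set. Eif4ebp1, the translation inhibitor downstream of mTOR and a member of the insulin, FOXO and mTOR list, differed by 0.29, and Ccng2, a FOXO-induced cyclin, by -0.64. In that list 8 members were higher and 8 lower.

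Several lists with medians below 0 moved towards 0 when the arrays that stood apart were left out. Oxidative phosphorylation had a median of -0.20, with 18 of 19 members lower in aged mice, beside 7465 of all 13383 genes, and 4 lower at an unadjusted p of 0.05 (5.96% of all genes). Those 4 were the respiratory chain subunits Cox4i1 (-0.64), Cox6c (-0.50), Ndufb8 (-0.45) and Cox7a2 (-0.26). Cox4i1 had levels of 11.15, 11.50, 10.46, 8.98 and 11.28 in aged mice and 11.31, 11.35, 11.41, 11.29 and 11.22 in adult mice. Aged arrays 4 and 3 were the lowest, and the difference was -0.01 without them. The list median was -0.07 without array 4 and -0.01 without arrays 3 and 4, when the median of all genes was -0.05. Glycolysis had a median of -0.16 with all arrays and -0.00 without array 4, and the ribosomal protein list had -0.09 and -0.03.

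None of the 13 members of the autophagy and lysosome list was higher in aged mice, beside 5918 of all 13383 genes. At an unadjusted p of 0.05, 3 were lower (5.96% of all genes), and 1 without array 4. The list median was -0.13 with all arrays and -0.08 both without array 4 and without arrays 3 and 4. The medians of all genes were then -0.04 and -0.05. Lamp1, a lysosomal membrane protein, had levels of 10.79, 10.96, 10.80, 10.55 and 10.89 in aged mice, against 11.01, 11.01, 11.04, 10.98 and 11.10 in adult mice. The groups did not overlap, and the difference was -0.23 ± 0.07 (adjusted p = 0.425) with all arrays and -0.15 without arrays 3 and 4. Sesn1, a sestrin that restrains mTORC1, had 8.01, 8.81, 7.15, 6.14 and 8.32 in aged mice and 8.72, 8.70, 8.83, 8.41 and 8.67 in adult mice. Its difference was -0.98 with all arrays and -0.29 without arrays 3 and 4, and that of the autophagy kinase Ulk1 was -0.39 and -0.14.

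Axin2, Sfrp1, Bambi, Mre11a and Klf4 differed by about as much without those arrays. In the Wnt list (9 of 12 lower, median -0.14), the feedback target Axin2 had 7.05, 8.05, 7.79, 8.04 and 7.53 in aged mice and 8.16, 8.27, 8.20, 7.81 and 8.20 in adult mice, a difference of -0.44 and of -0.59 without arrays 3 and 4. The secreted Wnt antagonist Sfrp1 differed by -0.36 and -0.34. In the TGF-beta and BMP list, Id1, the BMP target that blocks helix-loop-helix factors, differed by -0.76 and -0.41, Bambi, a decoy receptor, by -0.39 and -0.43, and Tgfb2, a ligand, by 0.30 and 0.40. Hes1, the Notch effector, differed by -0.44 and -0.18. Among immediate early genes, 12 of 17 were lower, beside 7465 of all 13383 genes. At an unadjusted p of 0.05, 3 of them were lower (5.96% of all genes): Junb (-0.46), Ier2 (-0.63) and Klf4 (-0.19). Without arrays 3 and 4 these were -0.39, -0.24 and -0.22. The second probe set of Klf4 differed by -0.04 with all arrays. Egr1 had 12.02, 12.27, 12.12, 12.27 and 12.21 in aged mice and 12.35, 12.41, 12.29, 12.29 and 12.28 in adult mice, with no overlap and a difference of -0.14.

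Of 27 DNA replication genes none passed an unadjusted p of 0.05 and the median was -0.01. Of 21 mitosis genes 1 passed, Aurka, a spindle kinase (-0.35), while the checkpoint kinase gene Ttk differed by 0.40. Over all genes, 2.68% were higher and 5.96% lower at that p. Mre11a, a nuclease of double-strand break repair, had levels of 6.65, 6.85, 6.60, 6.78 and 6.65 in aged mice, against 6.87 to 7.11 in adult mice. The groups did not overlap, and the difference was -0.28 ± 0.10 (adjusted p = 0.457) with all arrays and -0.27 without arrays 3 and 4, but -0.0065 on the second probe set. Apex1, the base excision endonuclease, differed by -0.46 and -0.04. Cdkn1c, a cyclin-dependent kinase inhibitor in the glucocorticoid list, had 4.86, 5.33, 5.19, 4.95 and 4.99 in aged mice and 5.35, 5.35, 5.46, 5.39 and 5.33 in adult mice, with no overlap before rounding and a difference of -0.32. Cxcl10, an interferon-induced chemokine, differed by -0.78. Of the fatty acid oxidation list, Acot1, an acyl-CoA thioesterase, differed by -0.71 and Etfdh, which passes electrons from the acyl-CoA dehydrogenases to the respiratory chain, by 0.40.

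**Figure D4:**
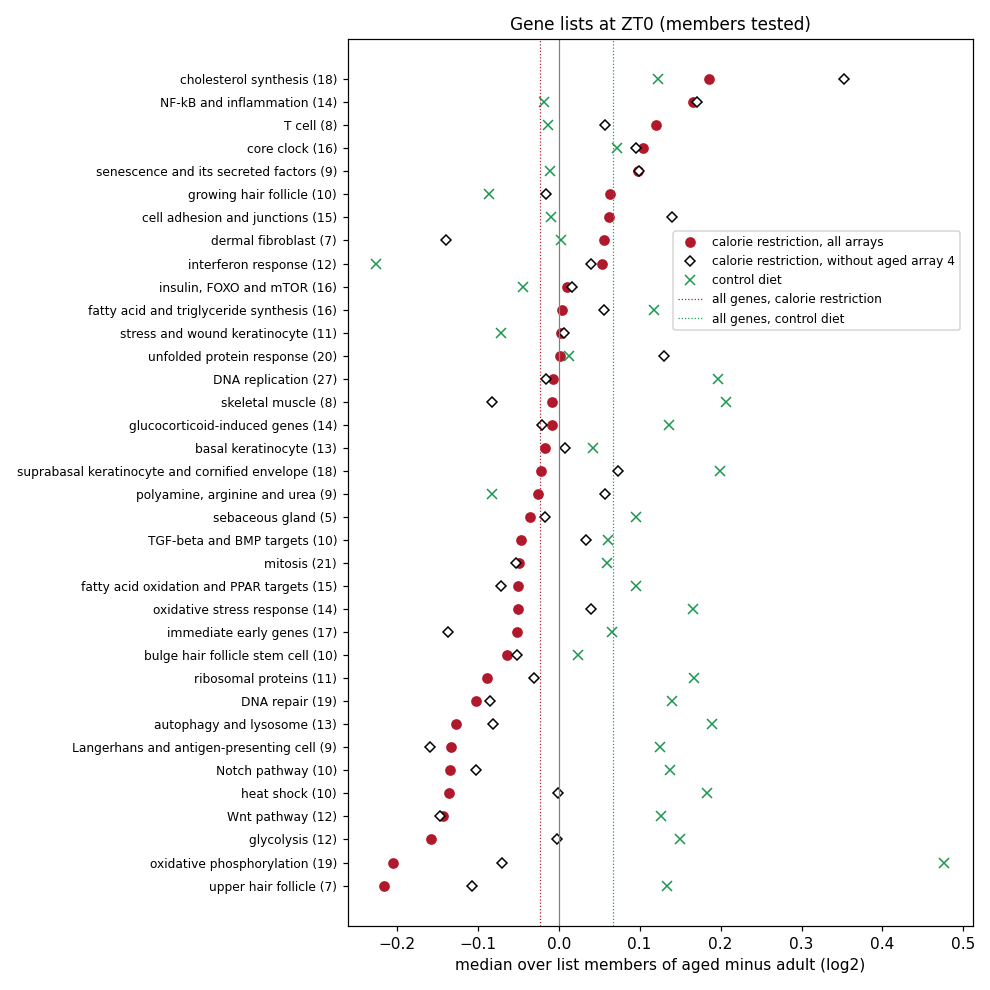
Median over the tested members of each gene list of the aged minus adult difference at ZT0 in log2 units, with the number of members tested in parentheses (lists with at least 5). Filled circles are calorie restriction with all arrays, diamonds without aged array 4, and crosses control diet. Dotted lines mark the medians over all genes, -0.02 under restriction and 0.07 on control diet. Oxidative phosphorylation lies at -0.20 under restriction and 0.48 on control diet.

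Markers of the labelled cells were present at both ages. All 13 basal keratinocyte markers on the array lay above the filter on dim genes, and their mean level per array was 10.87 to 11.22 in aged mice and 10.98 to 11.22 in adult mice. Of them, the laminin chain Lamb3 differed by -0.51 with all arrays and 0.13 without arrays 3 and 4, and P-cadherin, Cdh3, by 0.29 and 0.29. Cxcl14, a chemokine in the bulge list, differed by -0.44 with all arrays and -0.33 without arrays 3 and 4. Krt25, an inner root sheath keratin, differed by 0.33 and 0.55. Krt79, a keratin of the upper follicle, had levels of 9.66, 9.46, 7.89, 6.29 and 10.34 in aged mice and 10.17, 8.49, 10.11, 10.23 and 10.02 in adult mice, and its difference of -1.08 was 0.01 without arrays 3 and 4. Among junction genes, Cldn7 differed by -0.34.

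Of the markers of other cells that the sample could hold, the filter on dim genes was passed by 9 of 11 Langerhans and antigen-presenting cell markers, 8 of 9 T cell, 4 of 9 macrophage, neutrophil and mast cell, 7 of 10 dermal fibroblast, 3 of 7 endothelial, 3 of 7 melanocyte, 8 of 10 skeletal muscle, 2 of 5 adipocyte and 2 of 2 erythroid markers. None of these passed an unadjusted p of 0.05. The Langerhans list had a median difference of -0.13, with 8 of 9 members lower in aged mice, and a mean level per array of 5.48 to 5.90 in aged mice and 5.65 to 6.02 in adult mice. The means per array run over all markers on the array, also those under the filter level of 4.735. The median differences cover only the markers above it. Means of the macrophage, endothelial and adipocyte lists lay near that level. Aged arrays 3 and 4 held the highest aged means of the T cell, macrophage, fibroblast, endothelial, melanocyte, muscle, adipocyte and erythroid lists. For T cell markers the means were 5.40 to 5.91 in aged mice and 5.34 to 5.69 in adult mice, and the median difference was 0.12 with all arrays and -0.04 without arrays 3 and 4. For macrophage, neutrophil and mast cell markers they were 4.31 to 4.84 in aged mice and 4.29 to 4.55 in adult mice, and for fibroblast markers 5.40 to 5.85 in aged mice and 5.51 to 5.83 in adult mice. Endothelial markers averaged 4.52 to 4.98 in aged mice and 4.49 to 4.78 in adult mice, melanocyte markers 5.31 to 5.75 in aged mice and 5.29 to 5.49 in adult mice and muscle markers 4.88 to 5.39 in aged mice and 4.80 to 5.27 in adult mice. The part of these cells in the differences above was not tested. By Xist against Y-linked transcripts, 3 of 5 aged and 3 of 5 adult arrays came from female mice.

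On control diet at ZT0, 6 genes passed the adjusted threshold, a count of 0 to 1941 with single arrays left out, and the median aged minus adult difference was 0.07, beside 2 genes and -0.02 under restriction. The age by diet interaction, which tests whether the age difference under restriction departs from that on control diet, passed for 1195 genes, 1008 of them below 0 (7.53% of genes) and 187 above 0 (1.4%). With each array centred on its median the split was 712 below 0 and 435 above 0. For 1194 of these 1195 genes, which were chosen by the gap between the 2 age differences, those differences had opposite signs. The count rested on single arrays: it was 136 without aged restricted array 4 and 5 without adult control array 1, the arrays with the 2 highest positions on the first principal component. It was 0 when only the 18 arrays of the contrast entered the fit, where 1775 genes passed an unadjusted p of 0.05. Over 13383 genes, which are not independent, the deviations of aged restricted array 4 and adult control array 1 correlated at 0.79. These deviations were taken from the mean of aged restricted arrays 1, 2 and 5 and of adult control arrays 2 and 3. Aged restricted array 3 and adult control array 4 were left out of those means. The median SD was 0.36 over the 4 adult control arrays, the highest of the 24 groups, and 0.12 over the 4 aged control arrays.

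Among the genes with the smallest interaction p, Specc1 had a difference of 0.58 under restriction and -0.41 on control diet, an interaction of 0.99 ± 0.16 (limma adjusted p = 0.000134), and it was 1 of the 5 genes that passed without adult control array 1. Zdhhc13, a palmitoyltransferase, differed by 0.41 and -0.62 on the 2 diets. Fbxw9, an F-box protein, differed by -0.27 and 0.56, C2cd4b by -0.35 and 0.63, Hnrnpr, an RNA-binding protein, by -0.38 and 0.44, and Kctd2 by -0.52 and 0.73. The second probe set of Fbxw9 differed by 0.12 under restriction and that of Hnrnpr by 0.28, both opposite to the first, and that of Kctd2 by -0.0250. Oxidative phosphorylation held 10 of 19 members past the threshold, all below 0, beside 7.53% of all genes, and none of them passed without aged restricted array 4. The list's median age difference was -0.20 under restriction and 0.48 on control diet. Of the core clock, Per3 passed above 0 and Hlf below 0, and the probe sets of both disagreed in sign, as given above.

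ZT0 was also set against the rest of the day. At ZT4 to ZT20 together, no gene separated aged from adult restricted mice at an adjusted p of 0.05 in limma, 425 passed an unadjusted p of 0.05, and 6 genes differed by more than 0.5 log2 units, against 520 at ZT0. The median standard error was 0.07 over those times and 0.15 at ZT0. The test of the difference between ZT0 and the other times passed for 0 genes (626 at an unadjusted p of 0.05; smallest adjusted p 0.899). With unnamed transcripts left out, the smallest p belonged to Specc1, Zscan22, Aars and Lynx1. The age difference was 0.58 at ZT0 and 0.11 at the other times for Specc1, 0.76 and 0.00 for Zscan22, 0.66 and 0.03 for Aars, and -0.46 and 0.09 for Lynx1, a modulator of nicotinic receptors.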

How the data were processed

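The labels' protocols give an input of 25 ng RNA, amplified in 17 cycles, with 8 µg of product labelled. Per the submitters' processing notes, the deposited log2 values were made with RMA (no version given), a method that corrects background, quantile normalizes and summarises each probe set. They were used as deposited: 45140 probe sets, 28898 with 1 gene symbol. Symbols come from the platform annotation. The brightest probe set stood for a gene (17097 genes), and genes with a mean under 4.735, the 30th percentile of probe sets, were not tested, which left 13383. The precision is set by the number of arrays, and dim probe sets understate changes.

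Tests used limma 3.58.1 in R 4.3.3: 1 mean for each of 24 groups, all arrays of the series sharing 1 spread, two-sided, Benjamini-Hochberg over all genes tested, and the scripts were tested on simulated data. Lists, members and tests were chosen with earlier results of these data known. Genes named are the 6 with the smallest p per direction, since only Specc1 passed both with all arrays and without aged array 4 and only Rgcc with all arrays alone, every tested core clock gene, members of each list among its 4 smallest p, the 6 smallest interaction p and the 4 smallest p between ZT0 and the other times. Unnamed transcripts (symbols such as clone names, or those ending in Rik) were left out before ranking by direction, by interaction and between ZT0 and the other times. Alternatives covered the filter, probe set, scaling, prior, array weights, sex, replicate block and left-out arrays. The control probe sets of Gapdh and Actb and the second probe sets were examined after the data had been seen. Promoter windows come from RefSeq, GRCm38.p6.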

Additional observations from a re-analysis of the deposited data

Results flagged for a closer look

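In 6 of 166 pairs of a named gene and a restricted ZT0 group, 1 array lay far from the other 4 by Dixon's criterion, which chance alone gives for about 1 pair in 20. Idi1 was lowest on aged array 2, at 8.81, with the next aged array at 9.70. Ccl20 was highest on aged array 5, at 6.70, with the next at 5.77. Cldn7 was highest on aged array 2, at 5.41, with the next at 5.10. Krt79 was lowest on adult array 2, at 8.49, with the next at 10.02. Axin2 and Hnrnpr were lowest on adult array 4, at 7.81 and 9.31, with the next arrays at 8.16 and 9.51. None of the 6 came from aged array 4. The criterion can miss an array when a second one moves the same way, as aged array 3 did. It therefore does not tell whether array 4 lay apart gene by gene.

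The age difference departed from that on control diet, by the interaction term in limma, for 1195 genes. Among those named, the interaction was 0.99 for Specc1, 1.03 for Zdhhc13, -0.83 for Fbxw9, -0.98 for C2cd4b, -0.82 for Hnrnpr and -1.25 for Kctd2. Their adjusted p lay between 0.000134 and 0.0039, and without aged restricted array 4 and adult control array 1 together, 3 of the 6 passed.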

How the results depend on the processing

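Of 84 differences of named genes, 10 changed sign in at least 1 alternative, and the others in none. Those 10, none past the adjusted threshold with all arrays apart from Hnrnpr, were Hnrnpr (interaction 0.0573 with the mean of all probe sets), Cry2, Rora, Dbp and Ebp with array weights (0.0492, 0.05, -0.0269 and 0.0763), and Arntl, Rora, Ebp, Lamb3 and Krt79 without aged arrays 3 and 4 (0.17, 0.11, 0.0628, 0.13 and 0.0131). Single arrays left out gave -0.19 to 0.57 for Cry1, -0.0074 to 0.22 for Clock and -0.0188 to 0.23 for Dbp. The cause of these was not tested. The count for the age effect under restriction, 2 with all arrays, was 0 when only its 10 arrays entered the fit (525 at an unadjusted p of 0.05), 5 with each array centred on its median and 2574 with array weights (0.184 and 0.0797 for aged arrays 3 and 4; the weights gave 1 convergence warning). Left-out arrays gave 0 to 14: 1, 14, 0 and 4 without aged arrays 1 to 4, and 4 and 5 without adult arrays 3 and 4. It was 41 without aged arrays 3 and 4 together. On control diet, 6 with all arrays, it was 0 from its own arrays (627 at an unadjusted p of 0.05), 12 with the mean of probe sets, 1638 with weights, 0 with a trended robust prior (2357 at an unadjusted p of 0.05), and 0 to 1941 with left-out arrays (1941 and 867 without adult control arrays 3 and 4, and 0 or 1 without each of the other 6). The interaction, 1195, gave 0 from its own arrays (1775 at an unadjusted p of 0.05), 3518 with weights, 21 without aged arrays 3 and 4, 3 without aged array 4 and adult control array 1 together, and 5 to 2556 with left-out arrays. These were 1957, 645 and 136 without aged restricted arrays 2, 3 and 4, 770 and 641 without aged control arrays 2 and 4, and 5, 2556 and 1899 without adult control arrays 1, 3 and 4. The other times gave 52 genes with weights, and ZT0 against them 1143 with weights and 10 without aged arrays 3 and 4. With a replicate block the counts were 3 under restriction, 1607 for the interaction and 0 between ZT0 and the other times. No label says that the replicate numbers pair the samples. Deviations of same-numbered aged and adult arrays correlated at -0.59 to 0.25. Whether samples were handled in pairs cannot be told from these values over so few arrays. The number of arrays limits the precision, and a dim probe set's difference is understated. Leaving out arrays 3 and 4 together, or any control array, was chosen after seeing the data.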

Other observations

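Aars, Iars and Trib3 stood among the named genes with the smallest p, and 2 further gene lists were then drawn up, after those values had been seen. They describe the amino acid response, in which uncharged tRNA leads through the kinase GCN2 to translation of ATF4 and to induction of enzymes and transporters of amino acids. Since the choice followed the values, no test is given. The synthetase list includes Aars, which was among the genes that prompted it. Iars and Trib3 prompted the lists as well. Each of these genes counts towards the numbers of a list wherever it is a member, so those numbers are no independent support. Of all 13383 genes, 5918 were higher in aged mice, and 2.68% were higher and 5.96% lower at an unadjusted p of 0.05. Of 17 cytosolic aminoacyl-tRNA synthetase genes tested, 12 were higher in aged mice, 3 higher and 1 lower at an unadjusted p of 0.05, and the median difference was 0.13 with all arrays and 0.23 without aged array 4, beside 0.19 on control diet and 0.01 at the other times under restriction. Of 17 amino acid response targets tested, 12 were higher, 4 of them at an unadjusted p of 0.05, with a median of 0.21, beside -0.10 on control diet and -0.02 at the other times under restriction.

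Asns, asparagine synthetase, had log2 levels of 9.50, 8.56, 8.74, 8.33 and 9.48 in aged mice, against 8.28, 8.10, 8.87, 8.59 and 8.05 in adult mice. Chac1, which breaks down glutathione, had 7.94, 5.18, 5.41, 4.76 and 8.35 in aged mice and 4.75, 4.58, 6.31, 6.35 and 4.46 in adult mice. Slc7a1, a carrier of cationic amino acids, had 11.06, 9.90, 9.48, 9.54 and 10.92 in aged mice and 9.39, 9.55, 10.07, 9.80 and 8.80 in adult mice. In each of the 3, as in Aars and Trib3, aged arrays 1 and 5 were the highest of the 10, and the other aged arrays of Asns, Chac1, Slc7a1 and Trib3 lay within or close to the adult range. Among adult mice, arrays 3 and 4 were the highest for these 4 genes. The differences were 0.54 ± 0.18 for Asns, 1.04 ± 0.33 for Chac1 and 0.66 ± 0.25 for Slc7a1 (SE, n = 5 each). Their limma adjusted p was 0.435, 0.414 and 0.503. Each SE comes from the spread shared by all arrays of the series, not from these 10 arrays alone. The Gapdh 3′ minus 5′ difference was 0.00 and 0.06 on aged arrays 1 and 5 and 0.04 and 0.32 on adult arrays 3 and 4, and its part in these values was not tested. No label separates arrays 1 and 5 from the rest of their group.

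The promoters of Asns and Chac1 are printed beside that of Aars because each holds the letters TGATGNAA on either strand within 250 bases of its start, as 3.45% of promoter windows did. Both are from RefSeq (GRCm38.p6), 5′ to 3′ on the gene's strand, with the match in capitals: Asns at chr6:7693210-7693459 on the minus strand, with the match 23 to 16 bases before the start, and Chac1 at chr2:119350992-119351241 on the plus strand, with the match 193 to 186 bases before it.
Asns: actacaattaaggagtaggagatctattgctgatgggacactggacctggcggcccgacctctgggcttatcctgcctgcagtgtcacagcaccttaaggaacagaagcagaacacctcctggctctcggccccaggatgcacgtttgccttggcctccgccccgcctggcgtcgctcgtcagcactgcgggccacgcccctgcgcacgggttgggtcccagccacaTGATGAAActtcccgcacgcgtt
Chac1: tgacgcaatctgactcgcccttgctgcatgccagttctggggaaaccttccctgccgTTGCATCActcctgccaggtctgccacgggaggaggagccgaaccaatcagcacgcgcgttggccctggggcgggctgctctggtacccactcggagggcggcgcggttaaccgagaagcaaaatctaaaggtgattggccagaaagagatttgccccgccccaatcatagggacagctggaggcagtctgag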
